A study of Mus musculus with 4 samples.

Results

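The genes described are those of the cytosolic ribosomal proteins, the structural proteins of the large subunit (Rpl) and the small subunit (Rps) of the ribosome. Members were the genes whose mouse symbol is Rpl or Rps followed by a digit, plus the stalk genes Rplp0, Rplp1 and Rplp2 and the gene Rpsa, where a probe set of the array is annotated to that symbol alone. The S6 kinases (Rps6k) and pseudogenes were left out. This gave 48 genes of the 12393 genes with a probe set of their own, 26 of the large and 22 of the small subunit, and each was read on its brightest probe set by the mean of the 4 arrays. The name fits the members: 42 encode standard ribosomal proteins and 6 encode paralogs or relatives of them (Rpl3l, Rpl7l1, Rpl22l1, Rpl39l, Rps4l and Rps27l). A further 29 probe sets, 1 per family, are annotated to several ribosomal symbols or to such a symbol and another gene, and were read apart from the members. In 27 of these families, among them Rpl3, Rpl5, Rpl10 and Rplp1, no gene is a member, and the other 2 are Rpl37 with Rpl37rt and Rps27 with Rps27rt.

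The samples were dendritic cells (DC), the antigen-presenting cells of the immune system, from the spleens of female C57BL/6 mice aged 8 to 12 weeks. Mice had received either TCDD in corn oil at 10 µg/kg or, as the control, DMSO in corn oil, both by intraperitoneal injection 24 h earlier. TCDD is a dioxin and a ligand of the aryl hydrocarbon receptor. The labels give 3 mice per group, pooled spleens, magnetic sorting to over 90% purity and an amplification of the RNA before labelling, and there were 2 arrays per group, numbered as biological replicates. The labels do not say which mice went into which array, so the spread between arrays may be partly technical.

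A ribosome is built from a small subunit, which reads the mRNA, and a large subunit, which joins the amino acids. Its proteins are needed in nearly equal amounts, and their mRNAs are among the most abundant of any cell. In vertebrates these mRNAs begin with a C and an unbroken stretch of pyrimidines, the terminal oligopyrimidine (TOP) tract, through which the kinase complex mTORC1 and the protein Larp1 control their translation. Rplp0 and Rpl13a are often used as reference genes.

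The start of the gene was looked at first, since it is a feature that the choice of members did not use. Of the 48 genes, 42 had a start window in RefSeq (GRCm38.p6). In the 50 bases around the annotated start, 25 before and 25 from the start on, 23 of these 42 genes (54.8%) held a C followed by at least 7 more pyrimidines (C or T) on the gene's strand, against 17.7% of all 27025 genes in the same table. The set of all genes here is wider than the 12393 genes read on the array, so the shares come from unlike sets. Counted by windows, of which a gene can have several, the shares were 46.0% and 15.5%. On the opposite strand the same pattern stood in 4.76% of the members and 19.6% of all genes. A C exactly at the annotated start and 4 or more pyrimidines after it was found in 8 of 42 members (19.0%) and in 3.01% of all genes. These are matches of letters around an annotated start that can lie some bases from the true one. The windows below belong to genes whose values are given later or that stood high or low on the first TCDD array, printed 5′ to 3′ on the gene's strand with the pyrimidine run in capitals.
Rpl35 (chr2:39005115-39005144, minus strand): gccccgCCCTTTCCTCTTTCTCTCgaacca
Rpl7a (chr2:26910789-26910818, plus strand): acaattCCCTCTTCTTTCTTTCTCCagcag
Rpl13a (chr7:45128720-45128749, minus strand): acaagaCCTCCTCCTTTCCCaggcggctgc
Rpl14 (chr9:120571503-120571532, plus strand): ggcgggCCCTCTCTCTTCTCgctgagcgcc
Rplp2 (chr7:141447641-141447670, plus strand): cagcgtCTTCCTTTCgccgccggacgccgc
Rpl22l1 (chr3:28805505-28805534, plus strand): cccgttCTCTTCCCacggctgcagctcaac
Rps6 (chr4:86857345-86857374, minus strand): gtcgggCCTCTTTTTCgtgacgcctcccag
Rps9 (chr7:3704030-3704059, plus strand): ccttgtCTCTCTTTgtctcgggcctgagtt
Rps27 (chr3:90213627-90213656, minus strand): ctttcgCTCCTTTCCggcggtgacgacctc
These genes did not behave alike on the arrays. Rpl7a and Rplp2 were low, and Rpl35, Rpl14 and Rps6 high, on the first TCDD array. Over the 23 genes with the longer run the median log2 difference of TCDD from DMSO was -0.05, and over the 19 genes without it -0.15. By array the order of these sets turned. On the first TCDD array the medians were 0.15 with the run and -0.15 without it, and on the second -0.25 and -0.15.

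The values are log2 RMA values, that is background-corrected, normalized and summarized probe set levels, and all lie on steps of 0.1. Differences below are TCDD minus DMSO on that log2 scale, with the moderated standard error (SE) of the limma fit over all 22626 probe sets and n = 2 arrays per group. Adjustment was by Benjamini-Hochberg across all of them. The smallest p of an exact permutation test of 2 against 2 arrays is 0.33, so no such test was run. A gene was said to be lower or higher without overlap where each TCDD array was on that side of each DMSO array.

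Ribosomal protein mRNA of splenic DC differed little between the groups. The median difference was -0.05 over the 26 large subunit genes and -0.10 over the 22 small subunit genes, against 0.00 over all 12393 genes. In the large subunit 14 genes lay below 0, 10 above and 2 at 0. In the small subunit 13 lay below 0 and 9 above. No member reached a difference of 1, that is 2-fold. The widest were Rplp0 at -0.90 and Rpl14 at 0.70.

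No member passed the test. Limma called 0 of the 48 genes, and 0 of all genes (0% of 12393), with a smallest adjusted p of 0.349 among the members. At an unadjusted p under 0.05 there were 4 members, Rpl7 and Rps14 on the lower side and Rpl41 and Rps27 on the higher side, or 8.33% of the members against 14.5% of all genes. Without TCDD replicate 1 this count was 6 of 48 (25.7% of all genes), and without TCDD replicate 2 it was 13 of 48 (21.1% of all genes). Lower in TCDD without overlap were 7 of 48 members (14.6%; 19.4% of all genes), 2 of the large and 5 of the small subunit. Higher without overlap were 4 of 48 (8.33%; 20% of all genes), 3 of the large and 1 of the small subunit. In the other 37 members the groups overlapped. Both shares over the 48 members were below those of all genes. Within the small subunit 22.7% were lower, beside 19.4% of all genes. Among the 114 genes that are no members and have a mean level of 11 or more, 36.0% were lower.

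**Figure D1:**
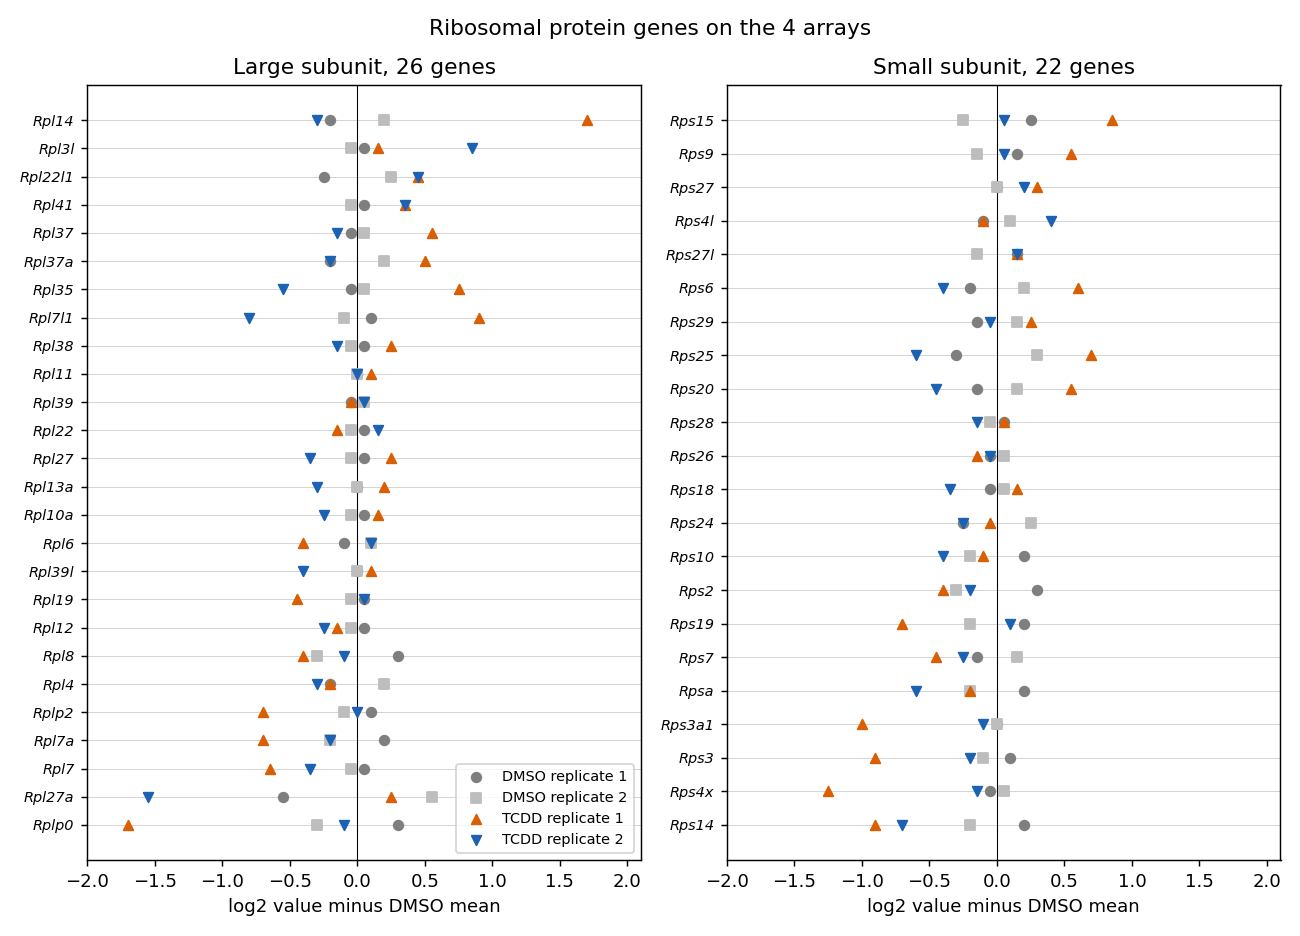
Log2 value of each of the 48 ribosomal protein genes on each array, minus the mean of the 2 DMSO arrays of that gene; large subunit genes are on the left, small subunit genes on the right, both ordered by the mean difference of TCDD from DMSO. Circles and squares are DMSO replicates 1 and 2, upward and downward triangles TCDD replicates 1 and 2. The upward triangles spread from -1.70 (Rplp0) to 1.70 (Rpl14), while the downward triangles stay between -1.55 (Rpl27a) and 0.85 (Rpl3l).

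Of the small subunit genes the lowest difference was in Rps14, whose protein sits at the platform of the subunit and whose loss of a copy is known from a form of myelodysplasia. Its probe set read 12.3 and 11.9 in the controls and 11.2 and 11.4 after TCDD, a difference of -0.80 (SE 0.192, adjusted p = 0.379 by limma). Both TCDD arrays were thus low by a like amount, and a further probe set of Rps14 gave 11.5 and 11.4 against 10.8 and 11, a difference of -0.55. The names of both sets end in _x_at, which marks probes that can match other transcripts. Under quantile normalization and cyclic loess the difference of the first probe set was -0.63 and -0.52.

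In 3 further small subunit genes without overlap the low value came almost wholly from TCDD replicate 1. Rps4x, an X-linked small subunit gene, read 12.8 and 12.9 in the controls and 11.6 and 12.7 after TCDD (-0.70, SE 0.453), while its other set gave 5.7 and 5.7 against 5.8 and 5.5 (-0.05). Rps3, which lines the entry channel of the mRNA and is also known in DNA repair, lay at 12.7 and 12.5 against 11.7 and 12.4 (-0.55, SE 0.302). Rps3a1 lay at 13.1 and 13.1 against 12.1 and 13 (-0.55, SE 0.371). In each of them TCDD replicate 2 was within 0.2 of the DMSO mean. The remaining gene was Rps7, whose protein can bind the p53 regulator Mdm2, with 12.8 and 13.1 in the controls and 12.5 and 12.7 after TCDD, with both TCDD arrays only slightly low (-0.35, SE 0.159). The single small subunit gene higher without overlap was Rps27, a zinc-finger protein gene, with 6.6 and 6.6 in the controls and 6.9 and 6.8 after TCDD (0.25, SE 0.0744). The probe set shared by Rps27 and Rps27rt read 12.2 and 12.7 against 12.9 and 12.2, so that there the groups overlapped.

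In the large subunit Rpl7 and Rpl12 were lower without overlap. Rpl7 read 12 and 11.9 in the controls and 11.3 and 11.6 after TCDD (-0.50, SE 0.143, adjusted p = 0.379 by limma), and its other 2 probe sets gave -0.75 and -0.20, on the same side. Rpl12, a protein at the base of the stalk, lay at 7.0 and 6.9 against 6.8 and 6.7 (-0.20, SE 0.0848), so its groups were separated by 1 rounding step of 0.1.

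On the higher side stood Rpl41, Rpl22l1 and Rpl3l. Rpl41 encodes the shortest ribosomal protein; its brightest probe set read 12.1 and 12 in the controls and 12.4 and 12.4 after TCDD (0.35, SE 0.0744, adjusted p = 0.349 by limma). Its other 3 probe sets gave 0.20, -0.20 and -0.45, the last below the dim threshold given next, so the direction differed between them. Rpl22l1, the paralog of Rpl22, lay at 9.0 and 9.5 against 9.7 and 9.7 (0.45, SE 0.212), and both TCDD arrays were above the DMSO mean by the same 0.45. Rpl22 itself, a protein with a known part in T cell development, stood at 11.3 and 11.2 against 11.1 and 11.4, a difference of 0.00. Its other probe set read 7.4 and 7.2 against 6.8 and 7.1 (-0.35, SE 0.159), lower without overlap. Rpl3l, known as a form of striated muscle, lay below the dim threshold of 5.53 (the 40th percentile of all probe sets), at 5.1 and 5.0 against 5.2 and 5.9 (0.50, SE 0.294). A change of a gene at that level need not show, and the same holds for the other members below it, Rpl39l at -0.15 and Rps4l at 0.15.

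The stalk of the large subunit recruits the elongation factors. Its base, Rplp0, read 12.4 and 11.8 in the controls and 10.4 and 12 after TCDD. TCDD replicate 1 was lower by 1.70 than the DMSO mean, the lowest value of all members, while TCDD replicate 2 was between the DMSO arrays. The difference of -0.90 had an SE of 0.697. Rplp2 showed the same order, with 12.2 and 12 against 11.4 and 12.1 (-0.35, SE 0.302). Rplp1, on a probe set that is also annotated to Gm13777, lay at 12.8 and 12.3 against 11.9 and 12.2 (-0.50, SE 0.245), lower without overlap.

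In 5 further genes known for tasks or mutations outside the core of translation the groups overlapped. Rpl11, which with Rpl5 binds Mdm2 when ribosome assembly fails, differed by at most 0.1 between arrays, with 11.3 and 11.3 in the controls and 11.4 and 11.3 after TCDD. Rpl5, on a shared probe set, lay at 13.4 and 13.6 against 13.4 and 13.1. Rps19, the gene most often mutated in Diamond-Blackfan anaemia, lay at 12.4 and 12 against 11.5 and 12.3, low on TCDD replicate 1 alone (-0.30, SE 0.369). Rpsa, also known as the laminin receptor, lay at 12.4 and 12 against 12 and 11.6 (-0.40, SE 0.238), with the lower DMSO value equal to the higher TCDD value. Rps6, the target of the S6 kinases, lay at 8.5 and 8.9 against 9.3 and 8.3 (0.10, SE 0.442), so that its TCDD arrays stood on opposite sides of DMSO.

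That last arrangement recurred in the family. In 13 of 48 members TCDD replicate 1 lay above, and TCDD replicate 2 below, both DMSO arrays, and in 1, Rpl22, it was the other way round. Over all genes these shares were 11.8% and 0.88%. Over the 114 other genes at a mean level of 11 or more they were 29.8% and 1.75%, and at that level the patterns were seen in 7 and 1 of the 33 members. The following genes were picked for it after their values were seen. Rpl14 read 6.9 and 7.3 in the controls and 8.8 and 6.8 after TCDD. Rpl35 lay at 11.9 and 12 against 12.7 and 11.4. Rps25 lay at 10.1 and 10.7 against 11.1 and 9.8. In all 3 the 2 TCDD arrays differed from each other by more than 1 on the log2 scale, although the group means differed by at most 0.70.

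The TCDD arrays thus differed more from each other than the DMSO arrays did. The median size of the gap between replicates over the members was 0.50 in TCDD and 0.20 in DMSO, and the TCDD gap was the wider one in 33 members and the narrower one in 10. Over all genes the medians were 0.30 and 0.20, but over the 114 other genes at a mean level of 11 or more they were 0.50 and 0.20, as in the members, with the TCDD gap wider in 81 and narrower in 22. Per array, against the DMSO mean, the median of the large subunit was 0.13 for TCDD replicate 1 and -0.18 for the other, and that of the small subunit -0.08 and -0.18. TCDD replicate 1 also stood apart in other respects. In the control probe sets the 3′ end of Gapdh exceeded its middle by 3.6 there, against 1.5 and 2.1 for the DMSO arrays and 2.0 for the other TCDD array. The beta-actin sets gave 4.0 there and elsewhere 1.9, 2.1 and 2.0. Between the 3′ and the 5′ end that array differed less from the rest, with 5.4 against 4.1, 4.9 and 4.7 for Gapdh and 4.4 against 4.0, 3.7 and 3.3 for beta-actin. The neutrophil markers (8 of 9 listed genes measured) stood at a median of 1.25 over the DMSO mean in that array and 0.05 in the other. Their summed level on the log2 scale was 11.53 there, 9.23 in TCDD replicate 2, and 9.36 and 9.0 in the controls. S100a8, a defining marker, read 10.3 there and 6.4, 5.9 and 5.6 elsewhere. The 8 genes were not alike. Camp was high on both TCDD arrays, with 5.6 and 5.1 in the controls and 6.9 and 6.5 after TCDD. Elane stood at -0.10 on TCDD replicate 1. Camp, Mpo and Lcn2 (below the dim threshold), 3 of 8 or 37.5%, were higher without overlap, beside 20% of all genes. The markers of DC themselves (12 of 13 measured) had medians of -0.63 and -0.33, and all 12 had a mean difference below 0 in the deposited values. With quantile normalization the medians were -0.50 on TCDD replicate 1 and 0.03 on TCDD replicate 2. With cyclic loess they were -0.53 and 0.09, so the low median on TCDD replicate 2 depended on the scaling. Of the DC markers Itgax lay between 9.1 and 10.1 and Cd74 between 10.9 and 13.2, while Xcr1 stood at 5.2 to 5.5. Csf1r, on the list of macrophage markers, lay between 11.4 and 12.5, and the B cell marker Cd22 between 9.0 and 9.5. Each was the brightest of its list. As deposited, 5 of 9 macrophage markers were lower without overlap and 0 higher (median -0.80), while in Csf1r the groups overlapped. Of 7 B cell markers 4, Cd22 among them, were lower and 2 higher. Over all genes 19.4% were lower and 20% higher. The levels of single markers alone do not tell the cell types apart. The part of the control gaps and of the cell markers in the ribosomal values was not tested. In bulk samples fewer cells of a type and less RNA per cell cannot be told apart.

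Within TCDD replicate 1 the members differed by the number in their name, a feature that was looked at after the values were seen. Ribosomal proteins were numbered by their position on gels, so that low numbers stand by and large for larger proteins and longer mRNAs. The 6 paralogs or relatives were left out here, as were Rplp0, Rplp2 and Rpsa, which left 39 numbered members. Of those left out, Rpl3l, Rpl7l1 and Rps4l stood at 0.15, 0.90 and -0.10 against the DMSO mean on TCDD replicate 1. Rpl22l1, Rpl39l and Rps27l stood at 0.45, 0.10 and 0.15. Against the DMSO mean, the 14 members with a number of 10 or lower stood at a median of -0.40 on TCDD replicate 1, the 10 from 11 to 20 at 0.13 and the 15 with a number over 20 at 0.25. In TCDD replicate 2 the medians were -0.20, -0.28 and -0.15. Of the 7 members lower without overlap 5 had a number of 10 or lower. Among the 39 numbered members 2 were higher without overlap, Rpl41 and Rps27, both with a number over 20. The paralogs Rpl3l and Rpl22l1, left out here, were also higher without overlap. As deposited, 35.7% of the 14 low-numbered members were lower without overlap, beside 19.4% of all genes. That tally depended on the scaling. Both with quantile normalization and with cyclic loess 0 of the 14 low-numbered members were lower without overlap and 2 were higher. Over all genes 14.99% were lower and 23.9% higher with quantile normalization, and 21.2% and 24.2% with cyclic loess. Whether counts over 14 members differ from these shares was not tested.

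A comparison within groups leaves the controls out of the TCDD values. Across the 39 numbered members, Spearman's rho of the number with TCDD replicate 1 minus replicate 2 was 0.45 (Pearson's r = 0.38). With DMSO replicate 1 minus replicate 2 it was -0.25 (r = -0.28). The 25 numbered families on shared probe sets, which are not the members' probe sets, gave 0.43 and -0.14. Quantile normalization left the value of the members at 0.46 and cyclic loess at 0.45. The points come from the same arrays and are not independent, so no p is given.

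**Figure D2:**
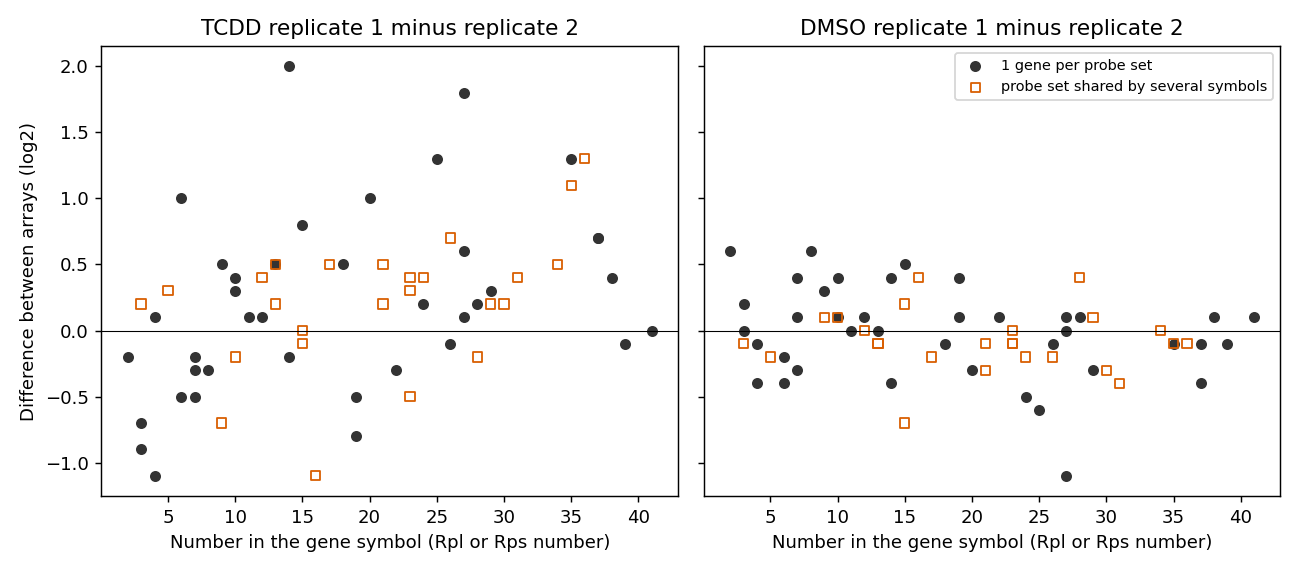
Difference between the replicates of a group (log2, vertical) against the number in the gene symbol (horizontal), for TCDD on the left and DMSO on the right. Filled circles are the 39 numbered members and open squares the 25 numbered families read by shared probe sets. Spearman's rho is 0.45 and 0.43 on the left and -0.25 and -0.14 on the right.

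Values in TCDD replicate 1 also differed by the kind of probe set. On this array type a name ending in _x_at marks probes that can match other transcripts, and _a_at a set whose probes match several transcripts of 1 gene. The 18 members read by an _x_at set stood at a median of 0.23 on TCDD replicate 1, the 15 read by an _a_at set -0.40, and the 15 read by a plain _at set 0.10. In TCDD replicate 2 the medians were -0.23, -0.10 and -0.25. Among genes that are no members, with a mean level of 10 or more, the _x_at sets were likewise high in TCDD replicate 1 (median 0.25 over 89 genes), the _a_at sets stood at 0.00 (103 genes) and the plain ones at -0.55 (125 genes). The part of the probe set kind in the order by number was not tested. Of the 4 members with an unadjusted limma p under 0.05, 3 were read by an _x_at set, namely Rpl7, Rpl41 and Rps14.

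Of the 48 members 23 had more than 1 probe set, and in some these went different ways. The widest gap was in Rps9, where the brightest set read 11.8 and 11.5 in the controls and 12.2 and 11.7 after TCDD (0.30), while another lay at 10.4 and 10 against 7.3 and 9.9 (-1.60). The low value was again that of TCDD replicate 1 alone. Rpl13a, a protein also known for silencing inflammatory mRNAs when released from the ribosome, showed a like split. Its brightest set lay at 12.8 and 12.8 against 13 and 12.5 (-0.05), and the next one at 12.2 and 11.8 against 10.4 and 11.8 (-0.90). Rps24 ranged from -0.15 to 0.60 over 6 sets, Rps10 from -0.55 to 0.15 over 6, and Rpl27a from -0.65 to 0.10 over 2, of which the latter is below the dim threshold of 5.53.

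In other members the mean differences of the probe sets were close. The 2 sets of Rps15 gave 0.45 and 0.50, with 11.5 and 11 in the controls and 12.1 and 11.3 after TCDD on the brighter one. The 3 sets of Rps28 gave -0.05, 0.00 and -0.05, and the 2 of Rps7 -0.35 and -0.25. The 3 sets of Rpl27 gave -0.05, 0.00 and 0.00, but by array they differed: 2 of them were high in TCDD replicate 1 and low in TCDD replicate 2 (0.25 and -0.35, 0.50 and -0.50), and the other was not (-0.10 and 0.10). Rps15, Rps28 and Rpl27 were picked after their values were seen, for the small gap between their sets. Rps27l, a known target of p53, gave 0.15 on its brightest set and -0.05 and -0.20 on the others.

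**Figure D3:**
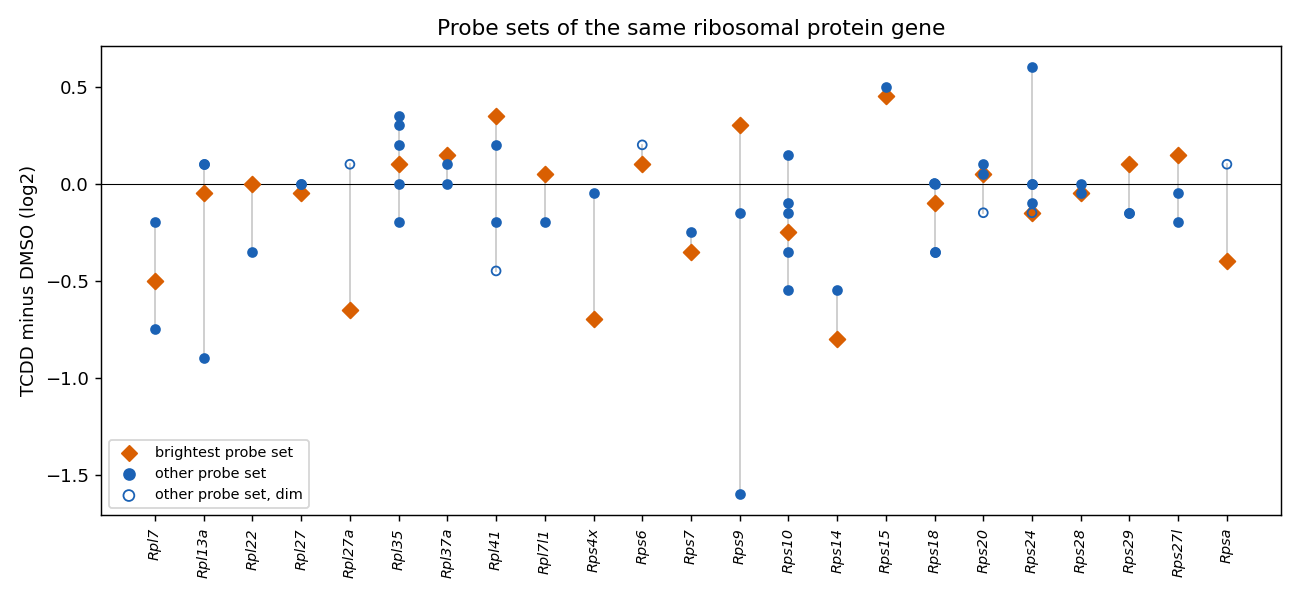
TCDD minus DMSO (log2) of every probe set of the 23 members that have more than 1, in a column per gene. Diamonds mark the brightest set, filled circles other sets, open circles other sets below the dim threshold of 5.53. The sets of Rps9 span 1.90 and those of Rpl13a 1.00, while those of Rps15, Rps28 and Rpl27 span 0.05 each.

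Members are bright, and bright genes were lower in TCDD in general. At a mean level of 11 or more the 33 members had a median difference of -0.15, with 6 lower without overlap and 1 higher, and the other 114 genes had a median of -0.25, with 41 lower and 2 higher. By array the medians of the members at that level were -0.15 and -0.20 in TCDD replicates 1 and 2, and of the other genes -0.05 and -0.43. Of the 4 members from 8 to 10, Rps6, Rps27l, Rpl22l1 and Rpl37, all lay above 0, with a median of 0.18, whereas the other 1764 genes at that level had a median of -0.35.

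**Figure D4:**
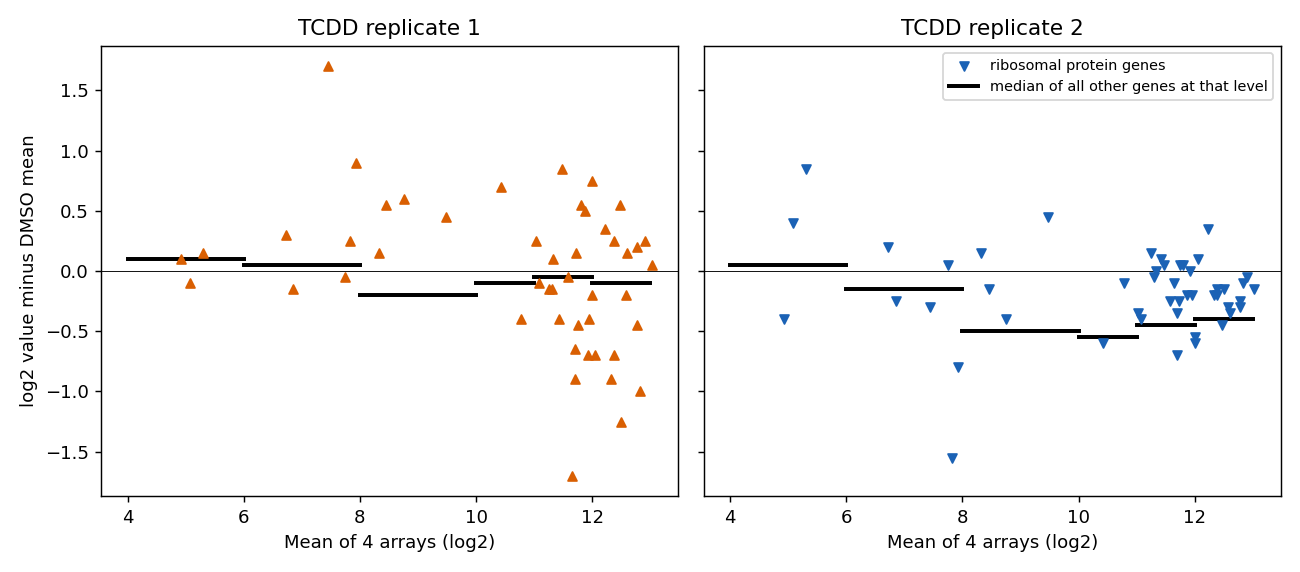
Log2 value minus the DMSO mean of each member (triangles) against its mean over the 4 arrays, for TCDD replicate 1 on the left and TCDD replicate 2 on the right. Black bars give the median of all other genes at that level. On the right the bar stands at -0.55 for levels from 10 to 11; on the left the members range from -1.70 to 1.70.

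The direction of the family depended on the scaling. Quantile normalization on top of the deposited values turned the median difference from -0.05 to 0.17 in the large subunit and from -0.10 to 0.05 in the small one, and cyclic loess turned them to 0.22 and 0.14. With cyclic loess the counts without overlap went from 2 lower and 3 higher to 1 and 10 in the large subunit, and from 5 and 1 to 1 and 7 in the small one. Of all genes 21.2% were lower and 24.2% higher with cyclic loess. The median of all genes moved by no more than 0.05 under these settings. Without TCDD replicate 1 both medians were -0.18, and without TCDD replicate 2 they were 0.13 and -0.08. Rps14, Rps4x, Rps3, Rps3a1, Rpl7 and Rplp0 stayed below 0, and Rpl41, Rpl22l1, Rpl3l and Rps27 above 0, under each scaling.

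**Figure D5:**
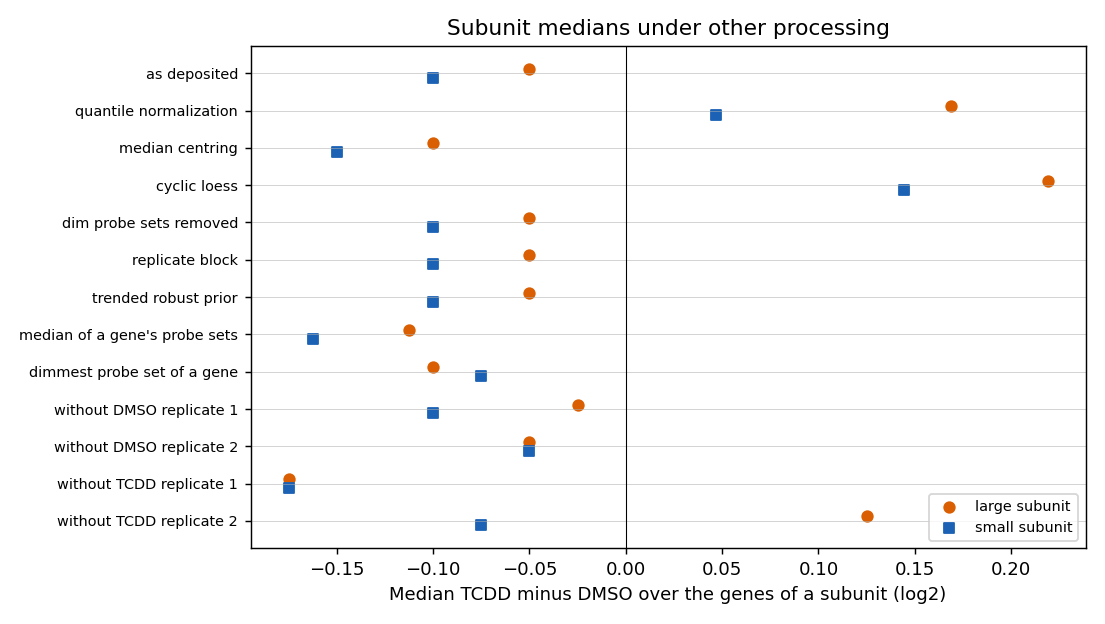
Median TCDD minus DMSO (log2) over the 26 large subunit genes (circles) and the 22 small subunit genes (squares) with the deposited values and under each alternative. The medians lie between -0.18 and 0.22, and they are above 0 for both subunits under quantile normalization and cyclic loess only.

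The rest of the translation machinery was read on lists of other genes, whose counts stand against 19.4% of all genes lower and 20% higher without overlap. Among genes that are no members, 39.3% were lower and 3.85% higher at a mean level of 8 to 10. At a mean level of 6 to 8 these shares were 21.7% and 18.6%. The lists hold genes of several levels, so neither pair of shares fits a whole list. Elongation factors bring tRNAs to the ribosome and move it along. Their list of 7 measured genes also holds genes with other roles, Eef1e1, Tpt1 and the kinase gene Eef2k. Of the 7 genes 4 were lower without overlap and 0 higher, with a median of -0.60. Eef1e1 and Eef2k were among the lower ones, while in Eef2 (-0.85) and Eef1b2 (-0.15) the groups overlapped. Eef1a1, the tRNA carrier, read 13.2 and 13.2 in the controls and 11.7 and 12.9 after TCDD (-0.90, SE 0.491). Eef1e1 differed by -0.75, Eef1d by -0.60 and the kinase gene Eef2k by -0.45. The median of this list was -0.48 with quantile normalization and -0.52 with cyclic loess. The counts were then 3 lower and 0 higher, and 2 lower and 1 higher, and the median for TCDD replicate 2 alone went from -0.40 to -0.11 and 0.00. Eef1d stood at -0.24 with quantile normalization and -0.30 with cyclic loess.

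Of 32 initiation factors, which load the ribosome onto mRNA, 13 (40.6%) were lower and 0 higher without overlap, with a median of -0.35 that shrank to -0.04 with quantile normalization and -0.07 with cyclic loess. Pabpc1, the poly(A)-binding protein, lay at 11.4 and 11 against 8.7 and 10.5 (-1.60, SE 0.752). The helicase gene Eif4a2 lay at 10.7 and 10.5 against 7.8 and 10.4 (-1.50, SE 1.06). In Pabpc1 and Eif4a2 TCDD replicate 1 held the lowest value. Over the whole list the median was -0.23 on TCDD replicate 1 and -0.40 on TCDD replicate 2. Eif4b stood at -0.80 and Eif1b at -0.75. The median over the probe sets of Eif4b was 0.50, on the other side of 0.

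Of 61 ribosome biogenesis factors, which process ribosomal RNA and assemble the subunits, 17 were lower and 8 higher without overlap, with a median of -0.20. Ncl, nucleolin, lay at 9.9 and 9.5 against 5.6 and 8.9 (-2.45, SE 1.35), but the median over its probe sets differed by -0.15. Brix1 and Rrs1 differed by -0.90 each and Emg1 by -0.80. For Brix1 the median over its probe sets was -0.45, and its dimmest set stood at 0.00. Of 74 mitochondrial ribosomal protein genes, which serve the separate ribosome of that organelle, 19 were lower and 4 higher, with a median of -0.15. Mrpl27 stood at -1.35, Mrpl24 at -0.95, Mrpl18 at -0.80 and Mrpl3 at -0.75, with a median over the probe sets of Mrpl3 of -0.05. With cyclic loess the counts were 10 and 10 for biogenesis, and 9 and 13 for the mitochondrial genes, so neither list kept its excess of lower genes.

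Of 15 measured genes of RNA polymerase I, which makes ribosomal RNA, 1 was lower (Taf1b at -0.35, below the dim threshold) and 1 higher (Polr2f at 0.30), with a median of -0.05. Polr2f stood at -0.10 by the median of its probe sets and at -0.50 on its dimmest set. Of 18 regulators around mTORC1 and Myc, 5 were lower and 3 higher, with a median of -0.10. Sesn1, an inhibitor of mTORC1, read 8.3 and 8.6 in the controls and 7.4 and 7.5 after TCDD (-1.0, SE 0.143), low by a like amount on both TCDD arrays, and its dimmest set gave -0.65. Tsc2, another inhibitor, differed by -0.55, the Myc antagonist Mxd1, below the dim threshold, by 0.55, and the TOP mRNA regulator Larp1 by -0.35. Larp1 stood at -0.01 with quantile normalization and -0.06 with cyclic loess. Fau, whose protein is a fusion that yields a small subunit protein, lay at 11.5 and 11.4 against 11.8 and 11.2 (0.05), with the TCDD arrays on opposite sides. In each of these lists limma called 0 genes. At an unadjusted limma p under 0.05 there were 0 genes of the elongation list, 4 initiation factors and 9 biogenesis factors. There were also 4 mitochondrial ribosomal protein genes, 1 gene of RNA polymerase I and 4 of the mTORC1 and Myc list. Of all genes 14.5% had such a p.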

How the data were processed

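The table holds log2 values of 22690 probe sets that the authors deposited, made with RMA per the submitters' processing notes, with software and version not given. Without 64 control probe sets, 22626 were tested. Of these, 20380 have 1 symbol in the platform's annotation, 691 several and 1555 none; a gene was read on its brightest probe set. TCDD was compared with DMSO with limma 3.58.1 in R 4.3.3 (lmFit, eBayes, two-sided), adjusted over all probe sets, with a call at an adjusted p under 0.05. The fit was checked on simulated data with independent noise of the same spread in both groups. The TCDD arrays here differed more from each other than the DMSO arrays did, which that check does not cover. Arrays give no counts, so their number limits the precision.

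Members and lists were chosen with earlier results of these data known. Named by rule were the 6 lowest and 4 highest genes without overlap per subunit, 3 per subunit whose probe sets differ most, fixed genes with known tasks, and up to 4 genes per list; others are marked in the text. Lists of B, T, NK, erythroid, platelet, plasma and macrophage markers had median differences of -0.40, 0.10, -0.10, 0.10, 0.35, -0.40 and -0.80. Protein lengths were not used here. Alternatives were other scaling, a dim filter, a replicate block, another prior, other probe sets of a gene and leaving out each array.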

Additional observations from a re-analysis of the deposited data

How the results depend on the processing

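Limma called 0 probe sets and 0 ribosomal protein genes under every alternative run (scaling, dim filter, prior, replicate block, other probe sets, each array left out); 2958 probe sets (13.1%) and 4 members had an unadjusted p under 0.05, and over the alternatives the members ranged from 0 (trended robust prior) to 13 (without TCDD replicate 2), with 6 without TCDD replicate 1. The replicate block called 0 and left the medians at -0.05 and -0.10; the labels do not say whether the numbers pair arrays, and replicate 1 minus 2 correlated at -0.19 between the groups. The crossed pairing, added after the data were seen, called 0. Large subunit: the median was 0.17 with quantile normalization and 0.22 with cyclic loess, with 1 lower in each and 7 and 10 higher without overlap. Small subunit: cyclic loess gave a median of 0.14, with 1 lower and 7 higher, and quantile normalization 1 lower and 5 higher. The dimmest probe set gave 2 higher. The cause of these moves was not tested. With quantile normalization 26.9% of the large and 22.7% of the small subunit genes were higher, beside 23.9% of all genes. Lower were 3.85% and 4.55%, beside 14.99% of all genes. With cyclic loess 38.5% and 31.8% were higher, beside 24.2%, and 3.85% and 4.55% lower, beside 21.2%. With 1 array left out the median ranged from -0.18 (without TCDD replicate 1) to 0.13 (without TCDD replicate 2) in the large and from -0.18 to -0.05 in the small subunit. Counts without overlap, easier to meet with 3 arrays, ranged from 4 to 13 lower and 3 to 14 higher in the large, and from 7 to 12 lower and 2 to 8 higher in the small subunit, while over all genes the shares ranged from 24.5% to 46.3% lower and from 25.5% to 41.8% higher. In these fits the lone array of a group is assumed to vary like the other group. Values in steps of 0.1 and 2 arrays per group limit what can be told apart.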
